A study of Homo sapiens with 6 samples.

Results

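RBM39 and RBM23 are the 2 genes described here, out of 20033 protein-coding genes whose start sites were scored for open chromatin. RBM39 is a splicing factor rich in serine and arginine that carries RNA recognition motifs, and RBM23 is its closest paralog. Indisulam, an aryl sulfonamide, acts as a glue between RBM39 and DCAF15, the substrate receptor of a CUL4-DDB1 ubiquitin ligase, so that RBM39 is ubiquitinated and degraded. RBM23 is degraded through the same receptor. Both genes were chosen for this property of their proteins, with earlier results of these data known. Their peaks are those that overlap the gene body or lie within 10 kb of either end.

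ATAC-seq was performed on SK-N-AS cells, a human neuroblastoma line without MYCN amplification, that had been grown as xenografts in mice and returned to culture. In this assay the transposase Tn5 inserts adapters where chromatin is open, so a peak at a gene reports accessibility and neither its RNA nor its protein. Naïve cells came from xenograft tissue given vehicle. The cells named R1 and R2 came from xenografts that had relapsed under indisulam and were taken during a further cycle of the drug. All 3 cell types were cultured and harvested without drug for this assay, with 2 libraries each and 100000 cells per library. The labels do not say how many tumors stand behind R1 or R2, or whether the 2 libraries of a cell type were separate cultures, so p-values measure only the spread between these libraries.

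The 6 libraries differed in depth, which sets how many weak peaks each can show. Each list was made by MACS2 from 1 library alone, and the background rate, the number of tags expected by chance at a position, could be recovered from its values. This rate was 2.29 and 1.35 tags for the naïve libraries, 7.94 and 5.43 for R1, and 0.850 and 0.899 for R2. The lists held between 67558 peaks in an R2 library and 340558 in an R1 library, and the weakest peak called had between 6 tags (R2) and 18 tags (R1). The adrenergic neuroblastoma genes HAND2, GATA3, ISL1 and DBH had a start peak in all 6 libraries. Of the 5 mesenchymal genes examined, PRRX1, FOSL1, VIM and FN1 had a start peak in all 6 and YAP1 in 4. No start peak was called in any library at the leukocyte genes PTPRC and CD3E.

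RBM39 (ENSG00000131051.24) is transcribed from the minus strand of chromosome 20, from 35742312 down to 35701347 in hg38, and its canonical transcript has 17 exons and starts at 35742260. RBM23 (ENSG00000100461.18) is on the minus strand of chromosome 14, from 22919182 down to 22893204, with 14 exons and a canonical start at 22919149. A promoter sequence in RefSeq (GRCh38.p14) was matched for 1 of the 2 genes, RBM23. The bases just upstream of every annotated RBM23 start are shown because the start peak summit of all 6 libraries falls on them. They are at chr14:22919183-22919399, read 5′ to 3′ along the minus strand, with matches to CCAAT or GGGCGG on either strand in capitals:
RBM23 upstream bases: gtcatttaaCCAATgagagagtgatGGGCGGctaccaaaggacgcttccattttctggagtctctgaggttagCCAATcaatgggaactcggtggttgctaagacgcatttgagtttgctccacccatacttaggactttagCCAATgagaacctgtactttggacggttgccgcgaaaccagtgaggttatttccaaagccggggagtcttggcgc
These 217 bases hold 3 matches to CCAAT, the letters of the CCAAT box bound by NF-Y, and 1 match to GGGCGG, the letters of an SP1 site. The whole RefSeq promoter, which runs from 250 bases before to 50 after the start, has a further CCAAT match at 22919170-22919174. It also has 2 matches to GCATGCG, the NRF1 core, which overlap each other at 22919178-22919184 and 22919179-22919185. No match was found to CACGTG (an E-box), CCGGAAG (ETS), TGACGTC (CRE), TGANTCA (AP-1) or GATGGCG (YY1). Among 34943 RefSeq promoters of the same length, 34.6% hold CCAAT on either strand, 44.9% GGGCGG and 3.88% GCATGCG. The share is 7.23% for CACGTG, 10.2% for CCGGAAG, 3.43% for TGACGTC, 7.72% for TGANTCA and 4.20% for GATGGCG. As many as 4 CCAAT matches, a count looked up after the RBM23 matches were seen, occur in 0.996% of the promoters. Within 50 bp of the RBM23 summit, CCAAT and GGGCGG were each found in all 6 libraries. These windows overlap one another, so the libraries do not count as separate finds. Of all start peaks, 17.6% to 19.6% hold CCAAT there and 45.6% to 49.1% hold GGGCGG. A match of letters is a description and does not show that a factor binds.

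Both genes had a peak over the start in every library. The RBM39 start peak ran from 35741890 to 35742735 in the first naïve library and from 35742079 to 35742690 in the second. It ran from 35741512 to 35742762 and from 35741532 to 35742755 for R1, and from 35741942 and 35742137 to the same end, 35742745, for R2. Its upstream edge thus stayed between 35742690 and 35742762, while the edge inside exon 1 and intron 1 lay further into the gene for R1. The widths were 846 and 612 bp for naïve cells, 1251 and 1224 bp for R1, and 804 and 609 bp for R2, which placed the peak at the 79.5 to 92.4 percentile of width in its own list. For R1 this percentile was 87.9 and 88.4, within the range of the other libraries. Peaks of the deeper R1 lists were wider in general, at a median of 389 and 382 bp against 298 to 344 bp elsewhere. The summit was 95 bp upstream of the canonical start in the first naïve library and 233 to 288 bp upstream in the other 5. R2 replicate 1 had a second, weak peak of 267 bp with 7 tags inside the gene, at 35741532-35741798, where the R1 start peaks extend.

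The RBM23 start peak ran from 22918856 to 22919556 and from 22918922 to 22919813 in the naïve libraries. In R1 it ran from 22918824 to 22919835 and from 22918552 to 22919737, and in R2 from 22919015 to 22919556 and from 22918951 to 22919519. Its widths were 701 and 892 bp for naïve cells, 1012 and 1186 bp for R1, and 542 and 569 bp for R2, at the 81.4 to 89.3 percentile of width in each list. The summit was 183 to 245 bp upstream of the canonical start in all 6 libraries. Both start peaks overlap the 5′ untranslated part of exon 1.

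**Figure D1:**
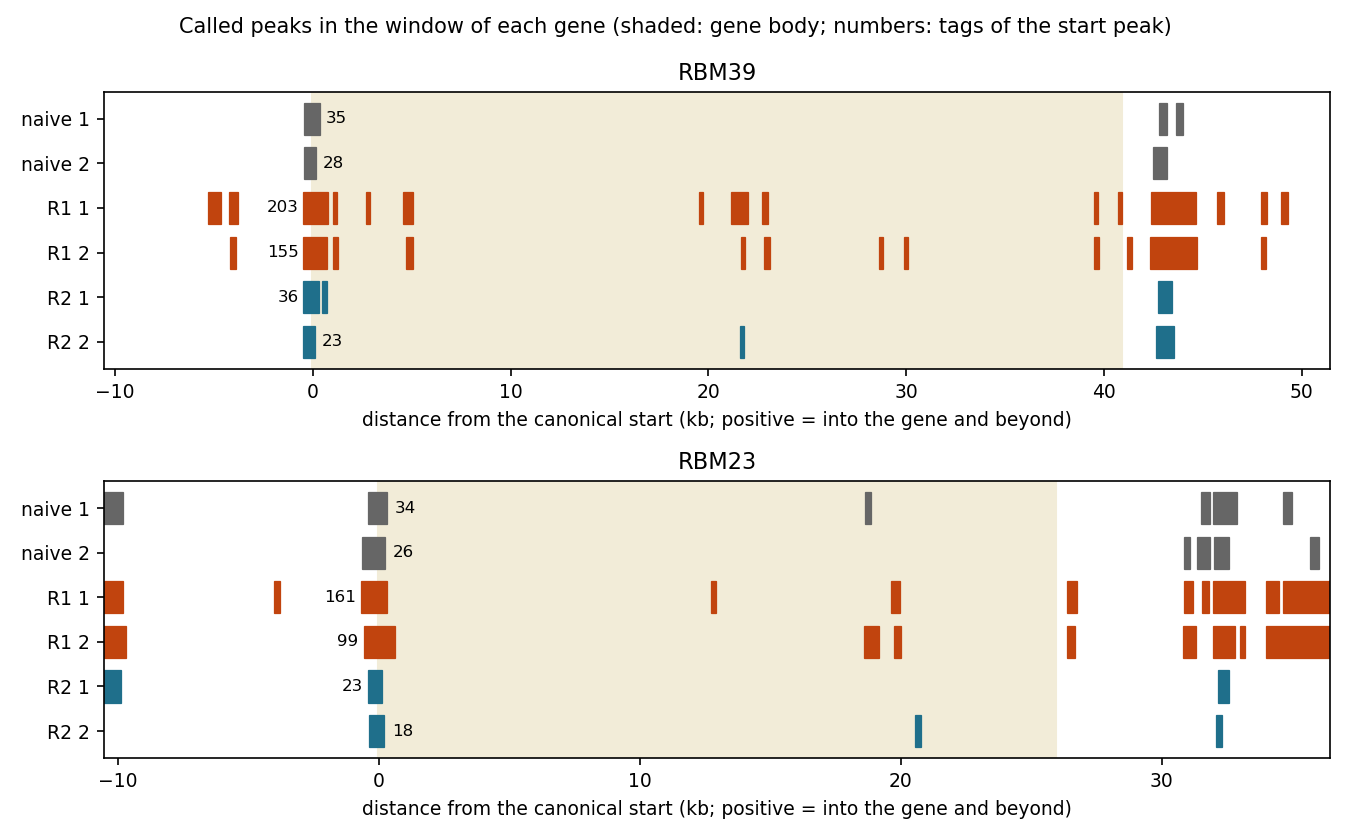
Called peaks by library (rows) against distance from the canonical start in kb (horizontal axis), for RBM39 above and RBM23 below, with the gene body shaded and the tags of the start peak written beside it. Both genes have a start peak in all 6 rows, and the RBM39 body is otherwise nearly empty outside R1.

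The strength of the RBM39 start peak, as the tags at its summit, was 35 and 28 for naïve cells, 203 and 155 for R1, and 36 and 23 for R2. Divided by each library's background rate, these are 15.3 (95% exact Poisson interval 10.7 to 21.3) and 20.7 (13.8 to 30.0) in naïve cells. The same scaled pileup was 25.6 (22.2 to 29.3) and 28.5 (24.2 to 33.4) for R1, and 42.3 (29.7 to 58.6) and 25.6 (16.2 to 38.4) for R2. All 4 resistant libraries were above both naïve libraries, although the intervals, which cover counting error only, overlapped between the second naïve library and each of the others. The interval of the first naïve library ended below those of both R1 libraries and of R2 replicate 1. Ranked by the −log10 p of all peaks in its list, the RBM39 start peak was at the 94.98 and 95.5 percentile for naïve cells, 98.9 and 99.2 for R1, and 98.4 and 93.9 for R2.

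The RBM23 start peak had 34 and 26 tags for naïve cells, 161 and 99 for R1, and 23 and 18 for R2. Its scaled pileup was 14.9 (10.3 to 20.8) and 19.2 (12.6 to 28.2) for naïve cells, 20.3 (17.3 to 23.7) and 18.2 (14.8 to 22.2) for R1, and 27.1 (17.1 to 40.6) and 20.03 (11.9 to 31.7) for R2. These ranges overlapped between the groups. In its list the peak stood at the 94.6 percentile in both naïve libraries, 98.1 and 97.4 for R1, and 93.7 and 88.9 for R2.

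Because a longer list adds weak peaks below any given one, each gene was also ranked among the same 20033 protein-coding starts in every library. This start percentile is the percent of other starts with a lower −log10 p for the best peak within 1000 bp, and starts with no peak are tied at the bottom. For RBM39 it was 73.5 and 81.0 for naïve cells, 83.1 and 89.5 for R1, and 97.0 and 83.8 for R2. All 4 resistant libraries lay above both naïve libraries, with a mean of 88.4 ± 6.45 (SD, n = 4) against 77.3 ± 5.23 (SD, n = 2). The difference of 11.1 percentile points had p = 0.133 in an exact two-sided permutation test, which is the smallest p that 2 against 4 libraries can give, and 0.222 after Benjamini-Hochberg adjustment over the 5 tests made. Of the 17131 genes with a start peak in at least 1 library, 19.6% likewise had all 4 resistant libraries above both naïve, so that this order was common. The share was 13.4% among the 10950 genes with a start peak in all 6 libraries, by the same percentiles. When only those genes were ranked, RBM39 was above too, by 20.2 points, on a scale without the starts that have no peak. Without naïve replicate 1 the difference was 7.40. The mean of R1 was 9.05 points and that of R2 13.1 points above the shared naïve libraries.

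For RBM23 the start percentile was 72.0 and 77.6 for naïve cells, 70.9 and 67.5 for R1, and 84.9 and 73.2 for R2. The groups overlapped, with means of 74.8 ± 3.95 (SD, n = 2) for naïve and 74.1 ± 7.56 (SD, n = 4) for resistant cells. The difference of -0.656 had p = 0.933 in the exact permutation test (adjusted 0.933). Both R1 libraries were below both naïve libraries, at a mean difference of -5.57, and the R2 mean was 4.26 above them with 1 of its 2 libraries between the naïve values. In order of its mean level RBM23 was highest in R2 (79.0) and lowest in R1 (69.2), but R2 and naïve cells overlapped.

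**Figure D2:**
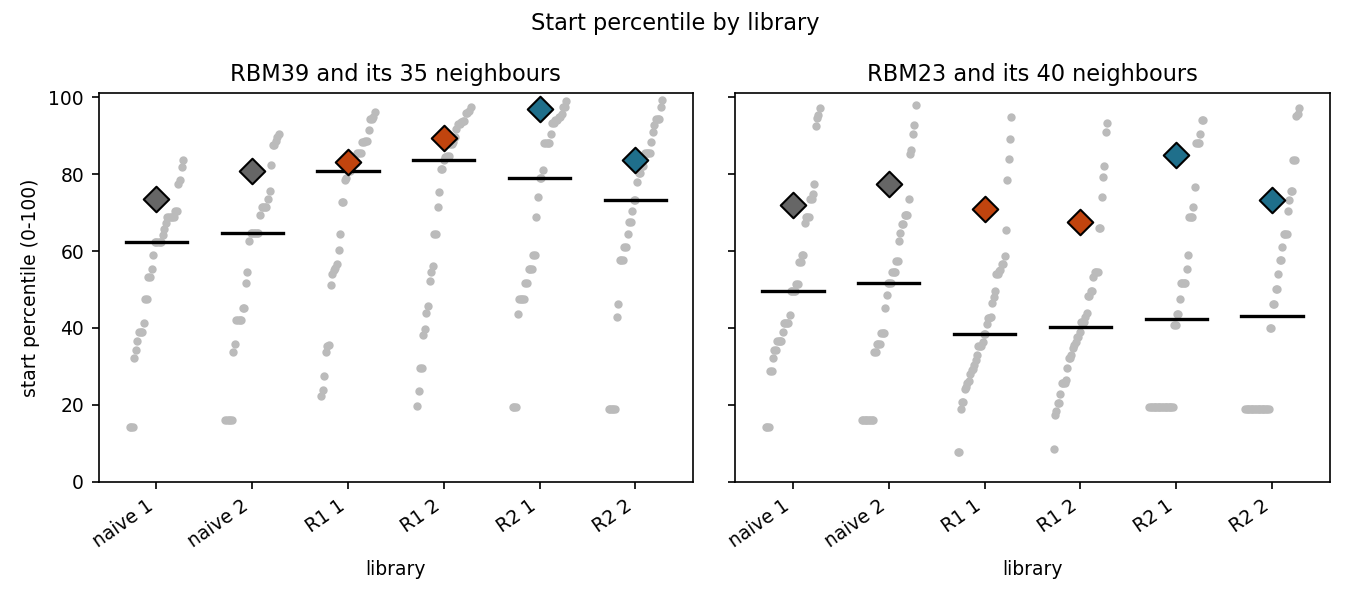
Start percentile (vertical axis, 0 to 100) in each library (horizontal axis) for RBM39 (left) and RBM23 (right), shown as diamonds, with every neighbouring protein-coding gene as a grey point and the neighbours' median as a bar. RBM39 lies at 73.5 and 81.0 in naïve cells and between 83.1 and 97.0 in resistant cells, where the median of its neighbours is also higher, while the median around RBM23 is lower there.

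The neighbouring genes differed between the groups as much as RBM39 did. Its neighbours are the 35 protein-coding genes with a start within 1 Mb, which share 26 to 30 different start peaks per library. Their median start percentile was 62.4 and 64.8 for naïve cells, 80.7 and 83.6 for R1, and 79.1 and 73.2 for R2. The mean was higher in resistant cells for 33 of the 35, by a median of 14.5 points, and 25 of them differed by more than RBM39. For 20 neighbours, or 57.1%, all 4 resistant libraries were above both naïve libraries, against 19.6% of all genes, and for 0 were they below. Some of these 20 had a start peak in R1 alone. They count as above only because starts with no peak are tied at 18.9 and 19.4 in R2, and at 14.3 and 16.1 in naïve cells. Among the 30 neighbours with a start peak in all 6 libraries the number above was 17 (56.7%), against 13.4% of all genes with such peaks. Counted over the 29 different start peaks of R1 replicate 1, the number above was 16. Neighbours on 1 stretch of a chromosome, and those that share a peak, are not independent of each other, so no p-value is attached to these counts.

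Near RBM39 are NFS1, the cysteine desulfurase of iron-sulfur cluster assembly, and ROMO1, a small protein of the mitochondrial inner membrane, which share 1 start peak beyond its 3′ end. This peak had a start percentile of 62.4 and 71.6 for naïve cells, 88.6 and 93.8 for R1, and 93.3 and 85.6 for R2, a difference of 23.4 points without overlap. PHF20, a chromatin reader on the other side, stood at 62.4 and 89.6, then 88.4 and 93.0, then 88.0 and 92.9, so that its groups overlapped. SCAND1, a SCAN domain protein, stood at 67.4 and 64.8 in naïve cells and between 82.0 and 95.5 in resistant cells. The start of TRPC4AP showed the largest difference in the other direction, -10.9 points, with overlapping groups.

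Relative to this neighbourhood the RBM39 values of naïve and resistant cells overlapped. Its start percentile minus the neighbours' median was 11.2 and 16.1 for naïve cells, 2.34 and 5.89 for R1, and 17.9 and 10.6 for R2. The means were 13.7 ± 3.53 (SD, n = 2) and 9.19 ± 6.72 (SD, n = 4), and the difference of -4.46 had p = 0.533 in the exact permutation test (adjusted 0.667). Both R1 libraries were below both naïve libraries on this scale, and the R2 libraries lay on either side of the naïve values. The number of neighbours ranked above RBM39 was 4 and 6 for naïve cells, 12 and 11 for R1, and 3 and 12 for R2.

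Around RBM23 most neighbours had a lower mean in resistant cells. The 40 neighbours had a median start percentile of 49.5 and 51.6 for naïve cells, 38.3 and 40.2 for R1, and 42.3 and 43.1 for R2. It was so for 31 of the 40, by a median difference of -7.68 over all 40, and for 7 of them (17.5%, against 13.2% of all genes) all 4 resistant libraries were below both naïve ones. All 4 were above for 2 neighbours, CIROP and DHRS2, which had a start peak in only 2 and 3 of the libraries. In the shallow R2 libraries 22 of the 40 neighbours had a start peak, against 37 and 31 in naïve cells and 38 and 39 for R1. Among the 17 with a start peak in all 6 libraries, 2 (11.8%) were below and 0 above. Of all genes with such peaks, 13.3% were below and 13.4% above, so the share below was not raised among these neighbours. MMP14, a membrane matrix metalloproteinase 82.6 kb away, had the largest difference, -22.5 points: it stood at 49.5 and 57.3 in naïve cells and between 19.4 and 39.9 in resistant cells, with no peak in 1 R2 library. PRMT5, the arginine methyltransferase that acts on Sm proteins of the spliceosome, starts 10.2 kb upstream of RBM23. Its start percentile was 97.2 and 92.9 for naïve cells, 84.0 and 79.3 for R1, and 94.2 and 83.8 for R2, which overlaps.

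RBM23 stood further above the median of its neighbours in the resistant libraries. Its start percentile minus their median was 22.5 and 25.9 for naïve cells, 32.6 and 27.3 for R1, and 42.6 and 30.1 for R2, with no overlap. The means were 24.2 ± 2.45 (SD, n = 2) and 33.1 ± 6.69 (SD, n = 4), and the difference of 8.94 had p = 0.133 in the exact permutation test (adjusted 0.222), again the smallest it can give. Of 16354 genes with enough neighbours, 10% had all 4 resistant libraries above both naïve on this scale. The groups overlapped when peaks within 2500 bp of a start were used (p = 0.4, exact permutation test), when only neighbours within 500 kb were used (p = 0.267), and when only genes with a start peak in all 6 libraries were ranked (p = 0.4). They also overlapped in both settings added after the data were seen, with all genes of the chromosome as neighbours (p = 0.533, exact permutation test) and with log2 tags over the neighbours' median (p = 0.4). Without R2 replicate 1 the difference was 5.78. In each R2 library 18 of the 40 neighbours had no start peak, so the neighbours' median there lay among the weakest starts called.

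**Figure D3:**
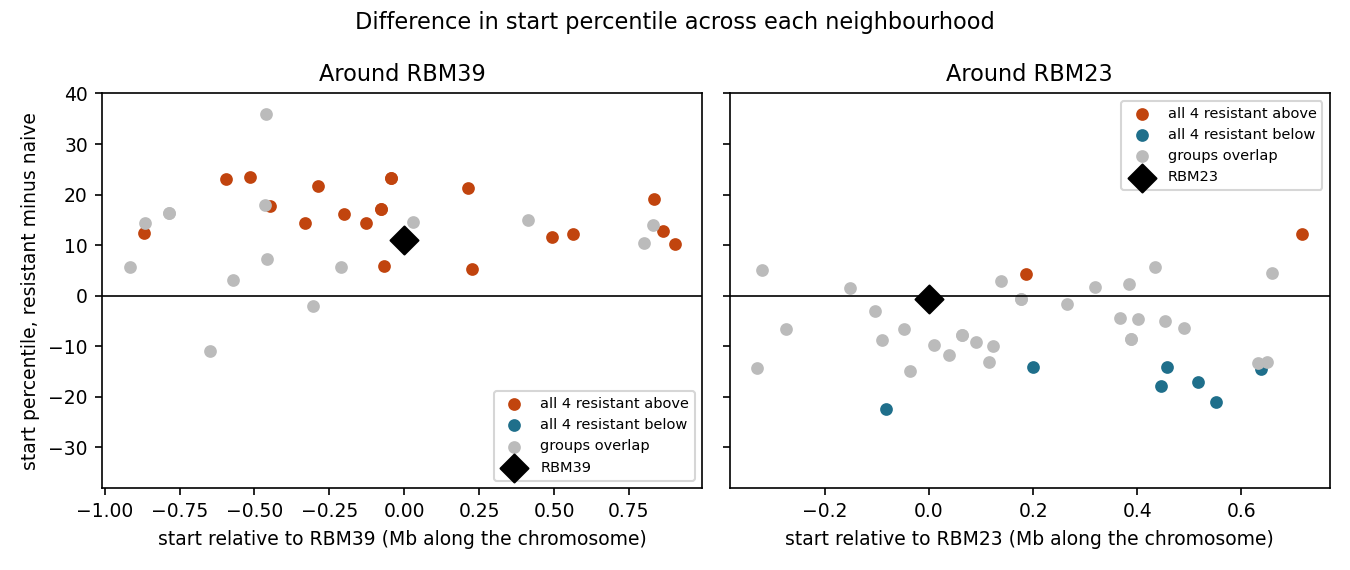
Resistant minus naïve start percentile (vertical axis, in percentile points) of each neighbouring gene against the distance of its start from RBM39 (left) or RBM23 (right) in Mb, coloured by whether all 4 resistant libraries lie above or below both naïve libraries. Of the 35 points on the left 33 are above 0, and RBM39 at 11.1 lies within them, whereas 31 of the 40 on the right are below 0.

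The 2 genes were nearly level with each other in naïve cells and apart in resistant cells. RBM39 exceeded RBM23 by 1.57 and 3.38 percentile points for naïve cells, by 12.1 and 22.0 for R1, and by 12.1 and 10.6 for R2. The means were 2.47 ± 1.28 (SD, n = 2) and 14.2 ± 5.25 (SD, n = 4), a difference of 11.8 points that all 4 resistant libraries showed, with p = 0.133 in the exact permutation test (adjusted 0.222). The ratio of their tags, which needs no depth correction, was 1.03 (95% interval 0.624 to 1.70) and 1.08 (0.609 to 1.91) in naïve cells. It was 1.26 (1.02 to 1.56) and 1.57 (1.21 to 2.04) for R1, and 1.57 (0.903 to 2.77) and 1.28 (0.660 to 2.51) for R2. Only the intervals of the R1 libraries, which have the most tags, lie above 1, and all 6 intervals overlap. On the log2 scale the ratio differed by 0.42 between resistant and naïve cells (p = 0.133, exact permutation test). The neighbourhoods moved apart too, with a median difference of 14.5 points around RBM39 and -7.68 around RBM23. Relative to its neighbours, RBM39 differed by -4.46 and RBM23 by 8.94, the opposite order. How many other pairs of genes separate in this way was not counted.

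**Figure D4:**
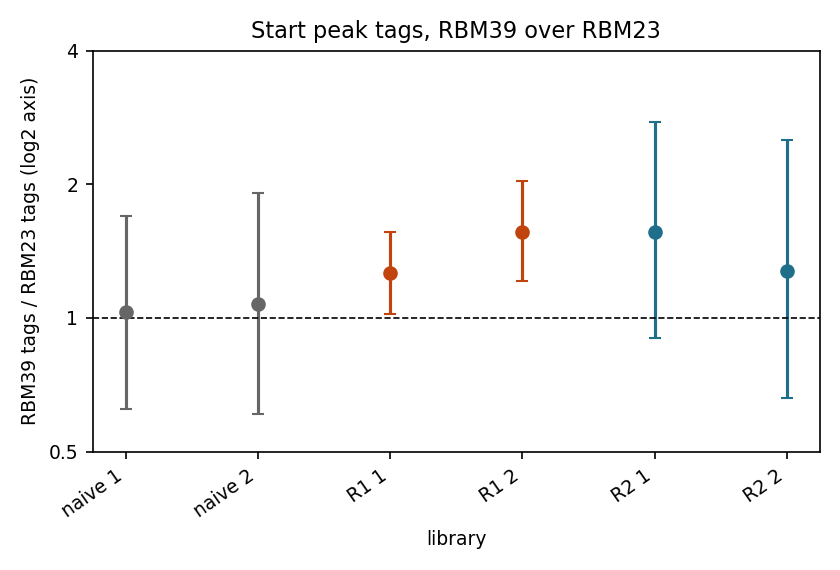
Tags of the RBM39 start peak over those of the RBM23 start peak (vertical axis, log2 scale) in each library (horizontal axis), as points with 95% intervals for counting error. The naïve points lie at 1.03 and 1.08 and the resistant points between 1.26 and 1.57, with intervals that overlap.

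Besides the start peak, the RBM39 window held few peaks outside R1. It had 3 and 2 peaks for naïve cells, 15 and 12 for R1, and 3 and 3 for R2, which joined into 18 separate regions. Only 2 regions had a peak in all 6 libraries: the start of RBM39 and the shared start of NFS1 and ROMO1, at 35697581-35699932 beyond the 3′ end of RBM39. The second of these had 28 and 23 tags for naïve cells, 229 and 177 for R1, and 30 and 24 for R2, more than the RBM39 start peak in both R1 libraries and in R2 replicate 2. Over the background rate that is 12.2 and 17.0 for naïve cells, 28.8 and 32.6 for R1, and 35.3 and 26.7 for R2.

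Of the 18 regions, 15 had a peak in R1 only, 6 of them in both R1 libraries. These 6 are in the 3′ untranslated part of exon 17 (35702528-35702791), intron 9 (35719162-35719538), intron 3 (35737193-35737724), intron 1 (35741010-35741241), upstream of the gene (35746031-35746492) and beyond its 3′ end (35694029-35694308). The 12 regions seen in R1 replicate 1 had 22 to 33 tags there. Scaled by the background rates, they would have at most 9.51 tags in the first naïve library, where the lowest peak called had 9 and 2 of the 12 would reach it. They would have at most 5.61 in the second naïve library and 3.53 and 3.73 for R2, all under the lowest pileup called. A peak can be called above such an expectation, as the next region shows, so the scaled values do not say whether these regions were open in the other libraries. A region in intron 9 (35720245-35721111) had 25 and 18 tags for R1 and 8 tags in R2 replicate 2. Regions with a peak in R1 only were also found in the RBM23 window, 4 of 12, with 2 of them in both R1 libraries. The R1 lists are the longest, at 340558 and 292030 peaks. How common R1-only regions are over the genome was not counted, so their number cannot be called a trait of RBM39.

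The RBM23 window held 6 and 5 peaks for naïve cells, 11 and 9 for R1, and 3 and 3 for R2, in 12 separate regions. Apart from its start, 1 region had a peak in all 6 libraries, at 22885936-22887183 over exons 4 and 5 of REM2, a small GTPase gene beyond the 3′ end of RBM23. The start region of PRMT5, at 22928833-22929841, reached into the window in 4 libraries, and the PRMT5 start peaks of the second naïve and the second R2 library lie just outside it. Within RBM23 itself the other peaks were weak: 3 regions in the 3′ untranslated part of exon 14 and 1 at exon 5. In exon 14, 22900001-22900544 had 18 tags in the first naïve library and 25 in R1 replicate 2, 22899150-22899516 had 22 and 18 tags for R1, and 22898389-22898588 had 10 tags in R2 replicate 2. No region inside RBM23 other than the start had a peak in more than 2 libraries.

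Of 3 regions at or just beyond the 3′ end of REM2, 2 stood lower in the resistant libraries. Region 22885936-22887183 had 35 and 19 tags for naïve cells, 52 and 31 for R1, and 9 and 10 for R2. Over the background rate that is 15.3 and 14.1, against 6.55 and 5.70 for R1 and 10.6 and 11.1 for R2, with no overlap. The adjoining region 22887285-22887797, over the 3′ untranslated part of REM2 exon 5, had 31 and 13 tags for naïve cells and 24 for R1 replicate 1, and no peak in the other R1 library or for R2. Scaled from the second naïve library, it would have 52.3 tags in R1 replicate 2 and 8.18 and 8.65 for R2, above the lowest called there, 14, 6 and 6. The next region, 22887825-22888322, had no peak in the first naïve library or in R2, 9 tags in the second naïve library, and 50 and 21 in the R1 libraries. Over the background rate that is 6.66 in the naïve library and 6.30 and 3.86 in R1. Among 52667 regions of the genome with a peak in both naïve libraries, 9.98% had all 4 resistant libraries below both naïve ones by this measure and 12.1% had them above. In the RBM23 window 2 of the 4 such regions were below, both of them at REM2, and 0 above, while in the RBM39 window both such regions were above. This measure was chosen after the peaks had been seen, and it has no test. The REM2 start region itself, at 22882425-22885155, had 15 tags in each naïve library, then 49 and 35 for R1. The naïve peaks, at 22884162-22884478 in the first library and 22883133-22883445 in the second, do not overlap each other. Only the second covers the REM2 start at 22883222. The wider R1 peaks join them into 1 region, which is how it counts among the 4 with a peak in both naïve libraries. R2 replicate 2 had a REM2 start peak of 8 tags outside the window, and R2 replicate 1 had none.

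The ligase through which indisulam acts was examined at the same starts. Of its 6 genes, 2 had all 4 resistant libraries above both naïve (19.6% of all genes), 1 had them below (13.2% of all genes), and 3 overlapped, with a median difference of -0.958 against 0.383 over all genes tested. DCAF15, the receptor, stood at 97.2 and 96.8 for naïve cells, 75.8 and 86.0 for R1, and 88.0 and 98.7 for R2, so that both R1 libraries were lower and R2 overlapped the naïve values. DDA1, a subunit that binds DCAF15 and DDB1, was lower in all 4, from 92.7 and 85.2 to between 66.0 and 84.9. CUL4A, a cullin scaffold, was higher in all 4, from 51.5 and 69.5 to between 82.0 and 95.2. RBX1, the RING subunit, was so too, from 53.3 and 35.8 to between 59.6 and 74.2. DDB1 and CUL4B overlapped.

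Among 9 genes of the U2AF homology motif family and their branch-site partner SF3B1, with which RBM39 acts in 3′ splice site recognition, 2 were above (19.6% of all genes), 1 below (13.2% of all genes) and 6 overlapped, with a median difference of 6.90 against 0.383 over all genes tested. SF3B1, the branch-site subunit of the U2 snRNP, went from 53.3 and 62.5 to between 63.3 and 79.1. PUF60, a poly-U binding splicing factor, went from 94.5 and 94.8 to between 85.6 and 93.7. U2AF1, the small subunit of the U2AF dimer, had a start peak in R1 alone and counted as above only because starts with no peak are tied at 18.9 and 19.4 in R2 and at 14.3 and 16.1 in naïve cells. The value of U2AF1 is uncertain, since hg38 holds a near-identical copy of it and reads that fit both places were filtered. U2AF2, the large subunit, stood at 89.3 and 81.0 in naïve cells and between 56.8 and 81.2 in resistant cells, which overlaps by 1 library.

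The genes whose start percentile over the 6 libraries was most like that of RBM39, by Euclidean distance and outside its neighbourhood, were COQ10A (7.48), CCNB1 (7.82), PIP4K2B (8.08), CHD1 (8.53) and BRPF3 (8.89). For RBM23 they were BAG1 and CHMP5, which share a start peak (5.51), SCAMP2 (5.80), NHEJ1 (6.11) and HMCES (7.04). The distance between RBM39 and RBM23 was 30.1, and 2923 genes were closer to RBM39 than RBM23 was. These distances are over 6 libraries that share their cell line, and they say nothing of shared control.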

How the data were processed

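Peaks of 6 ATAC-seq libraries were used. As the methods state, the authors mapped reads to hg19 by BWA, flagged duplicates by Picard 1.65, filtered by SAMtools 1.3.1, shifted the ends of reads (+4 and -5 bp) and ran MACS2 on each library alone (q 0.01, extension 200, shift 100). The submitters' notes list hg19 and hg38, and all 24 chromosomes fit hg38 lengths, so hg38 was used with GENCODE 44. The deposited columns hold a fold enrichment (a ratio over background), the −log10 of p and q, and a score. The authors' score was not used. The fold is (tags + 1)/(background rate + 1), which gave tags and rate. Strength was compared by ranks and by tags over rate, but unequal depth still acts on weak peaks. The start percentiles carry no interval for counting error, which is larger where tags are few. For R2, the RBM39 start peak had 36 and 23 tags and stood at 97.0 and 83.8.

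The members, gene lists and tests were chosen with earlier results of these data known. Named genes were the 2 members, genes in their windows, the 3 nearest coding genes on either side, the listed genes, and the 5 with the nearest pattern, although CIROP, DHRS2 and TRPC4AP were named after their values were seen. The exact two-sided permutation test compared 2 naïve with 4 resistant libraries. Some marker genes examined are not reported here. Functions were tested on simulated data. SciPy 1.17.1, pandas 2.3.3 and NumPy 2.4.6 were run under Python 3.11.15.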

Additional observations from a re-analysis of the deposited data

How the results depend on the processing

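With 2 naïve and 4 resistant libraries no p can fall under 0.133, so no result could pass 0.05 under any setting. The 5 differences kept their sign under every alternative tried, except that of RBM23 (-0.656), which became 2.14 without naïve replicate 2, 0.408 without R1 replicate 1 and 1.55 without R1 replicate 2. Leaving out 1 library at a time gave 7.40 to 14.8 for RBM39, -4.25 to 2.14 for RBM23, -7.36 to -1.97 for RBM39 minus its neighbours, 5.78 to 10.9 for RBM23 minus its neighbours, and 9.15 to 13.0 for RBM39 minus RBM23. Ranking only genes with a peak in all 6 libraries gave 20.2 for RBM39 and 21.1 for RBM39 minus RBM23. Leaving out the starts with no peak stretches the percentile scale, so these values do not show a larger difference than the main setting. In settings added after the data were seen, with all genes of the chromosome as neighbours the differences were -1.92 (RBM39, p = 0.8, exact permutation test) and 4.20 (RBM23, p = 0.533), and from tags on a log2 scale -0.15 and 0.20 (p = 0.533 and 0.4). Both settings end the separation of the groups for RBM23 minus its neighbours.

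Peaks in the RBM39 window, 38 over the 6 libraries, were 23 with no flank and 25 at a −log10 q of at least 5. The 37 of RBM23 were 12 with no flank, 18 with 5 kb and 68 with 20 kb. Peaks of the first naïve library shared with all others fell from 2 to 1 at each gene when at least 50% of each region had to overlap. Replicate numbers did not pair the libraries (correlations of deviations 0.052, -0.020 and 0.003 over 10950 genes), and with the replicate block the exact permutation p was 0.222 for RBM39, 0.667 minus its neighbours, 0.889 for RBM23, 0.222 minus its neighbours and 0.222 for RBM39 minus RBM23, where 0.222 is the smallest possible.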
